A study of Mus musculus with 300 samples.

Results

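Tcl1 was described across 300 single spermatogonia of adult mice, as 1 of the 23354 gene names in the expression table. It was selected on its measured level, which differed strongly between the brightest and the dimmest cells, so its levels over brightness are given as a description and carry no test. TCL1 proteins have no enzymatic activity. They bind the pleckstrin homology domain of the kinase AKT and raise its activity, and human TCL1A is an oncogene of T-cell leukaemia. In the seminiferous tubule, stem cells receive GDNF through the receptors GFRA1 and RET, and the signal runs through AKT and ERK.

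All cells carried the ID4-EGFP reporter, whose brightness reports the gene for ID4, an inhibitor of DNA binding found in spermatogonial stem cells. The mice were untreated, and each suspension came from 2 or more of them. Cells that were bright for the surface protein CD9 and positive for EGFP were sorted and captured singly on Fluidigm C1 chips, so reporter-negative cells are not represented. Imaging on the chip placed each cell in a quartile, namely Q1, the brightest (79 cells), Q2 (78 cells), Q3 (71 cells) or Q4, the dimmest (72 cells). There were 4 replicate preparations, which are the n of every mean ± SD here, with 15 to 22 cells for each preparation and quartile. Values are FPKM, sequenced fragments relative to gene length and sequencing depth.

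The cells matched their label. At 1 FPKM or more, the germ cell genes Dazl and Ddx4 were detected in 300 and 299 of 300 cells, and Sall4, a zinc finger gene of undifferentiated spermatogonia, in 294. A cell held 2934 to 7817 genes at that level, and preparations 1 to 4 averaged 4368, 5813, 5572 and 6216 genes. Relative sequencing depth, read from the spacing of the lowest FPKM values, averaged 1.03 ± 0.14 for Q1 cells, against 1.01 ± 0.12 for Q4 cells (SD, n = 4; median cell 1).

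Tcl1 lies on the minus strand of chromosome 12 (GRCm38, GENCODE vM21, positions 105216750 to 105222793) and encodes a protein. GENCODE gives it 6 transcripts, of which Tcl1-201 is 1398 bases long in 4 exons. None of its exons overlaps a gene on the other strand. Of the 2074 different stretches of 50 bases in its transcripts, 0 also occurred in a transcript of another gene, its relatives included. Of these relatives, Tcl1b1 to Tcl1b5 form a cluster next to it on the plus strand. The nearest, Tcl1b4, lies 9756 bases away and the farthest, Tcl1b2, 61524 bases away. The remaining family member, Mtcp1, is on chromosome X.

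The bases before the start of Tcl1 and of Tcl1b2 are shown because Tcl1b2 was the only neighbour of the cluster with any value above 0. Both are RefSeq sequences of GRCm38.p6, 250 bases up to the RefSeq start, at chr12:105222738-105222987 (minus strand) and chr12:105146769-105147018 (plus strand). The GENCODE gene of Tcl1 starts 56 bases further upstream. That of Tcl1b2 starts 1005 bases further upstream, so the Tcl1b2 window lies inside its GENCODE gene, with 0 bases in an exon of it. Capitals mark matches on either strand to an E-box (CAGGTG), a GC box (CCGCCC) and a TATA-like motif (ATAAATA).
Tcl1: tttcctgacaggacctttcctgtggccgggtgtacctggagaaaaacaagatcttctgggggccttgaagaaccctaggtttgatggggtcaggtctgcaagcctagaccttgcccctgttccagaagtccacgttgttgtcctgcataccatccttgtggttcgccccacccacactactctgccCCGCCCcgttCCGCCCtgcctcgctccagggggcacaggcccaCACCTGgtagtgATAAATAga
Tcl1b2: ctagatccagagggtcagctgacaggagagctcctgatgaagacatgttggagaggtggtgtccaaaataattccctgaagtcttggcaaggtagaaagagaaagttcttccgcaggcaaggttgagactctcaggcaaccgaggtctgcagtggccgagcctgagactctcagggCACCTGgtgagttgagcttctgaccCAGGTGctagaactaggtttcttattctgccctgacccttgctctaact
The Tcl1 window held 2 GC boxes, 1 E-box and 1 TATA-like match, and the Tcl1b2 window 2 E-boxes and neither of the others. In the Tcl1 window the TATA-like match lay 3 to 9 bases before the RefSeq start and the E-box 16 to 21. The GC boxes lay 49 to 54 and 59 to 64 bases before it. All but the farther GC box therefore lie downstream of the GENCODE start of Tcl1. Whether any match acts was not tested. Over 32851 promoter windows of the same length, 32.7% held the GC box, 17.2% the E-box and 5.17% the TATA-like motif. An ETS motif (CCGGAAG, in 6.91% of windows), an octamer (ATTTGCAT, 1.60%) and a forkhead motif (GTAAACA, 3.17%) had 0 matches in either window. The windows of Tcl1 and Tcl1b2 shared 0 words of 12 bases, while those of Tcl1b2 and Tcl1b4 shared 202.

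Most cells either carried Tcl1 at a high level or barely at all. It was listed at 0 in 71 cells (23.7%), lay above 0 but under 10 FPKM in 33, and reached 10 FPKM or more in 196 (65.3%). No cell lay between 6.95 and 12.5 FPKM. In the 196 cells the median was 194 FPKM, with an interquartile range of 88.5 to 400, and the highest cell had 1996 FPKM. The low values fell on whole multiples of a step, the worth of 1 sequenced fragment. By that reading 24 of the 33 low cells held a single fragment of Tcl1 (0.564 to 1.89 FPKM), and all 33 lay within 0.1 fragment of a whole number. Over all genes, 66.6% of values between 0.5 and 4.5 steps did so, against 20% for an even spread. For Tcl1 the step was refined on its own lowest values and the range reached 10 fragments. The figures for Tcl1 and for all genes are therefore not a like comparison. The customary limit of 1 FPKM therefore ran through the cells with a single fragment, 17 of which stood above it, and shares are given at 1 and at 10 FPKM. Single fragments were found in 1 cell of Q1, 4 of Q2, 6 of Q3 and 13 of Q4.

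**Figure D1:**
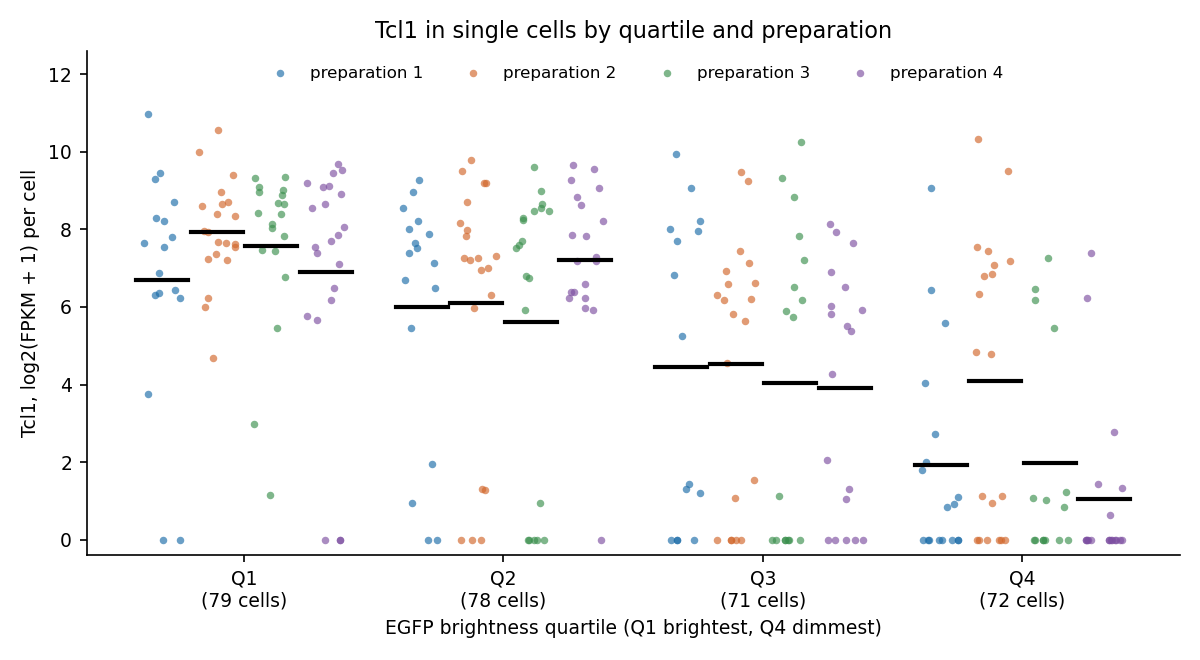
Tcl1 in each of 300 cells, as log2(FPKM + 1) on the vertical axis, by EGFP quartile on the horizontal axis and by preparation in colour, with black bars at the mean of each preparation and quartile. Cells lie in a high band and a low band in every quartile, and the low band fills from Q1 to Q4, where 34 of 72 cells were listed at 0.

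The brightest cells carried most Tcl1. Cells at 10 FPKM or more made up 88.2%, 100%, 89.5% and 86.4% of Q1 in preparations 1 to 4. In Q2 the shares were 76.5%, 76.2%, 70% and 95%, and in Q3 they were 53.3%, 65%, 52.9% and 57.9%. Q4 had 22.2%, 55%, 26.7% and 10.53%. The order of the quartiles was the same in 3 of 4 preparations, while in preparation 4 the share in Q2 exceeded that in Q1. Q4 of preparation 2 stood high. It held 11 of the 21 dim cells with 10 FPKM or more, and outside it 10 of 52 dim cells (19.2%) reached that level.

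On average the share at 10 FPKM or more reached 91 ± 6.1% in Q1 and 79.4 ± 10.8% in Q2, then 57.3 ± 5.6% in Q3, and ended at 28.6 ± 18.9% in Q4 (SD over 4 preparations). At 1 FPKM or more the shares were 93.6 ± 7.4%, 83.3 ± 10.3%, 70.2 ± 7.6% and 45.6 ± 15.8% (SD, n = 4). The difference of Q1 from Q4 was 62.4 percentage points at the higher limit and 48 at the lower one, and all 4 preparations showed it.

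Cells that carried Tcl1 also carried more of it in Q1 than in Q4. Among cells at 10 FPKM or more, the median came to 263 ± 59 FPKM for Q1, 213 ± 65 for Q2, 140 ± 82 for Q3 and 100 ± 33 for Q4 (SD, n = 4). The ranges over preparations did not overlap between Q1 and Q4. The Q4 medians rest on few cells, 4, 11, 4 and 2 in preparations 1 to 4, against 15, 21, 17 and 19 in Q1. On the log2 scale the ranges of each pair of neighbouring quartiles, and those of Q1 and Q3, overlapped. Between Q3 and Q4, 2 of 4 preparations went each way. In preparation 1 the medians were 199 FPKM in Q1, 198 in Q2 and 252 in Q3, with 66.3 in Q4. Single dim cells could be as high as bright ones, since the top cell of each quartile had 1996 FPKM (Q1), 889 (Q2), 1208 (Q3) and 1282 (Q4).

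**Figure D2:**
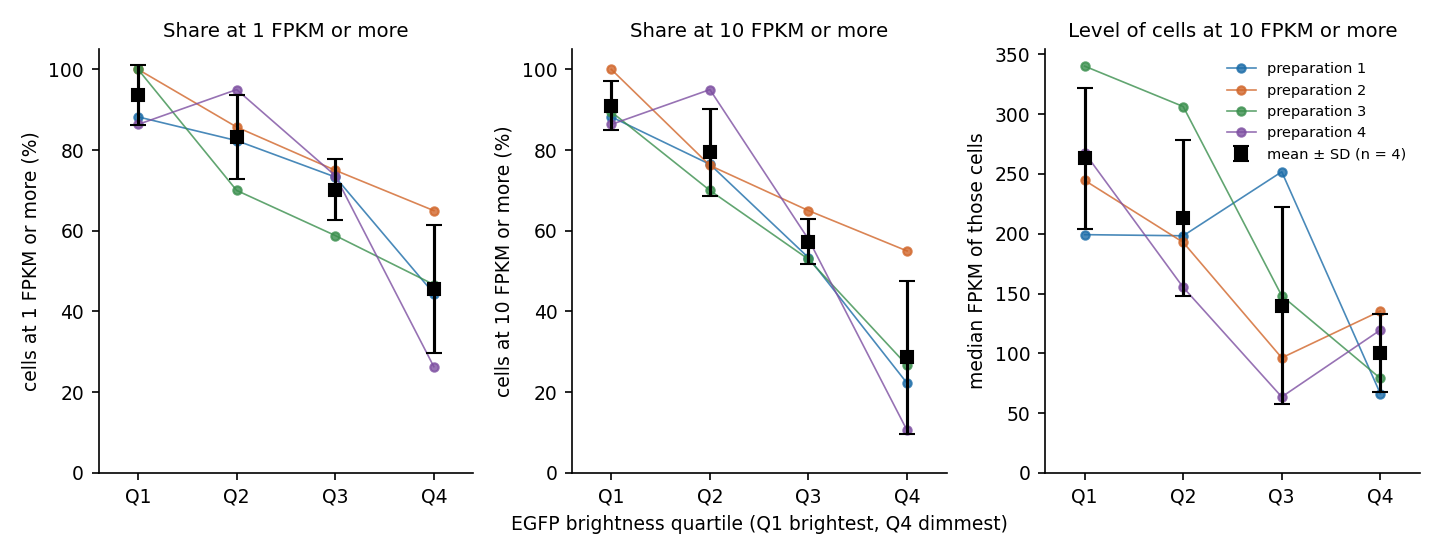
Share of cells with Tcl1 at 1 FPKM or more, share at 10 FPKM or more (both in percent) and median FPKM of cells at 10 FPKM or more, by EGFP quartile, with a line for each preparation and black squares for the mean ± SD over 4 preparations. The share at 10 FPKM or more averaged 91% in Q1 and 28.6% in Q4, and the Q4 point of preparation 2 lies at 55%.

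On the scale of log2(FPKM + 1), averaged over all cells, Q1 had 6.70, 7.94, 7.58 and 6.91 in preparations 1 to 4 and Q2 had 6.01, 6.11, 5.62 and 7.21. Q3 had 4.46, 4.54, 4.05 and 3.92, and Q4 had 1.92, 4.10, 1.97 and 1.04. Q1 exceeded Q4 by 5.02 ± 0.91 on this scale (SD over preparations). Of the neighbouring quartiles, only Q2 and Q3 kept apart over all preparations, with a difference of 1.99. The ranges of Q1 and Q2 (difference 1.04) overlapped, as did those of Q3 and Q4 (difference 1.99, and 0.44 in preparation 2). A Q1 cell had the higher FPKM in 84.6%, 83.6%, 95.4% and 89.1% of all pairs with a Q4 cell of its own preparation, ties counted as 0.5. Against Q2 cells it did so in 54.7%, 65.3%, 67.4% and 52.8% of pairs. By mean FPKM, the rank of Tcl1 among 23354 gene names was 225 for Q1, 368 for Q2, 733 for Q3 and 1743 for Q4.

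The quartile accounted for 28.3% of the variance of Tcl1 over cells on the log2 scale, against 1.07% for the median gene, and 4 of 10411 genes had a larger share. Tcl1 was chosen for its difference over brightness, so this high place follows from the choice and is no separate finding. The preparation accounted for 1.11%. A share of 67.8% lay between cells of the same preparation and quartile. Inside those groups Tcl1 had r = -0.10 with the number of genes per cell and r = 0.10 with log2 relative depth (300 cells).

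Of the other family members, Mtcp1 was detected widely and the Tcl1b genes hardly at all. Tcl1b1, Tcl1b3, Tcl1b4 and Tcl1b5 were listed at 0 in all 300 cells, which allows up to 1% of cells with a counted fragment. This limit covers counting error only and is no limit on cells that express the gene. Between 2.88% (Tcl1b4) and 34.1% (Tcl1b3) of the different stretches of 50 bases in the 5 Tcl1b genes, and 11.7% in Mtcp1, also occurred in a transcript of another gene, so their counts are less certain than those of Tcl1. Tcl1b2 reached 1 FPKM in 6 cells, 2 of Q1, 3 of Q2, 1 of Q3 and 0 of Q4, and its highest value was 80.7 FPKM. Of these, 5 had Tcl1 at 10 FPKM or more. Mtcp1 reached 1 FPKM in 107 cells and had a mean of 13.1 FPKM, against 189 FPKM for Tcl1. On the log2(FPKM + 1) scale its mean was 1.87 ± 0.70 for Q1 cells, against 1.55 ± 0.46 for Q4 cells (SD, n = 4). The difference did not pass limma's moderated test (0.32, SE 0.38, adjusted p = 0.754).

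Tcl1 is best known from lymphocytes, and lymphocyte genes were detected in a minority of cells. Of 13 lymphocyte markers, Cd3g, Blk, Rag1 and Rag2 were listed at 0 in every cell. The most often detected were Lck, in 46 cells and up to 291 FPKM, and Cd2, in 32 cells and up to 262 FPKM. Cd79b was found in 2 cells, up to 212 FPKM. All 13 summed to 3.73 to 38.9 FPKM over the preparations of Q1, 3.15 to 32.5 for Q2, 5.42 to 14.6 for Q3 and 14.5 to 32.8 for Q4. Ptprc, the pan-leukocyte antigen CD45, was detected in 2 of the 196 cells with Tcl1 at 10 FPKM or more. Cd3e, a subunit of the T-cell receptor complex, was detected in 24 of all cells, up to 21.3 FPKM, and 21 of these were among the 196. The part of such cells in the level of Tcl1 was not tested. Of the 2 markers with enough cells to test, Lck and Cd2, 0 passed between Q1 and Q4, near the 3.25% of all genes called. Oocytes also carry Tcl1, and Bmp15, Oosp1 and Oog3 of the oocyte list were at 0 throughout. Zp3 of that list was detected in 42 cells, up to 341 FPKM, Gdf9 in 4, up to 58.6 FPKM, and Nlrp5 in 3. Of the tested markers of macrophages (4), Leydig cells (1), peritubular and endothelial cells (1) and oocytes (1), 0 passed between Q1 and Q4. This too is near the 3.25% of all genes, and so few markers cannot tell whether such cells differ. No Sertoli marker had enough cells. The macrophage markers summed to 34.4 to 630 FPKM in Q1, against 20.8 to 328 in Q4, over preparations. Of 7 tested spermatocyte and spermatid markers 1 was higher and 0 lower, against 2.72% and 0.528% of all genes. This was Tnp1, a spermatid nuclear protein (1.81, limma adjusted p = 0.0138), a call lost without preparation 1, 3 or 4. Its r with Tcl1 inside quartiles was 0.01.

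Some genes varied with Tcl1 among cells of the same preparation and quartile. The measure was Pearson's r of log2(FPKM + 1) after the mean of the preparation and quartile was subtracted, over 300 cells. Cells of a group share a chip, a preparation and a range of brightness, and r is given as a description. Over the 10410 other genes that reached 1 FPKM in 30 or more cells, r had a median of -0.01 and a 5th to 95th percentile of -0.13 to 0.11. All values were weak, from -0.32 to 0.35. The genes named next were chosen for the highest or lowest r with one sign in each preparation, so that sign is no finding.

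The highest was Rasgrp2, an exchange factor for small GTPases of the RAP family (r = 0.35, and 0.30 to 0.40 over preparations). Ptpn13, a protein tyrosine phosphatase, had r = 0.33 (0.12 to 0.41). Etv5, an ETS factor that GDNF induces, followed at 0.32 (0.18 to 0.46). Dusp6, the ERK phosphatase of the same feedback loop, had 0.31 (0.19 to 0.40). Ppfibp2, a liprin, and Esrp1, an epithelial splicing regulator, had r = 0.31 and 0.29. Further genes belong to signalling and adhesion, namely the kinase gene Fyn, the ephrin receptor gene Epha2, the basement membrane gene Nid1, the GTPase-activating protein gene Arhgap26, the adhesion gene Mpzl2 and the polarity gene Prickle1, with r of 0.27 to 0.28. The rest of the 15 were the ribosomal protein gene Rpl4 (0.28), which has many near-identical copies in the genome, the thioesterase gene Acot13 (0.27) and the acetylcholine receptor gene Chrna4 (0.27). Foxc2, a forkhead gene of stem cells, lay just outside (0.26).

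The lowest was Gmnn, geminin, which blocks renewed licensing of replication origins (r = -0.32). It ranged widely over the quartiles, with -0.16 for Q1, -0.01 for Q2, -0.54 for Q3 and -0.51 for Q4. Lonrf3, a ring finger gene, and Stra8, which retinoic acid induces at differentiation, both had r = -0.31. Galnt12, Uba2 of the SUMO pathway, the splicing factor gene Srsf2, the microtubule regulator Stmn1, Mrpl18 of the mitochondrial ribosome, the myristoyltransferase gene Nmt2 and the chromatin gene Hmgb2 had r of -0.28 to -0.24. Rbbp7 lay just outside (-0.24). All 15 and all 10 had one sign in each of the 4 quartiles. They were chosen by their r over these same cells, so this is no separate finding. The library kit does not mark strand, and 9 of these 25 genes overlap an exon on the other strand, Mrpl18 with Tcp1, Ppfibp2 with Cyb5r2, Srsf2 with Mettl23 and Mfsd11, and Rasgrp2, Ptpn13, Esrp1, Nid1, Arhgap26 and Mpzl2 with predicted genes.

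**Figure D3:**
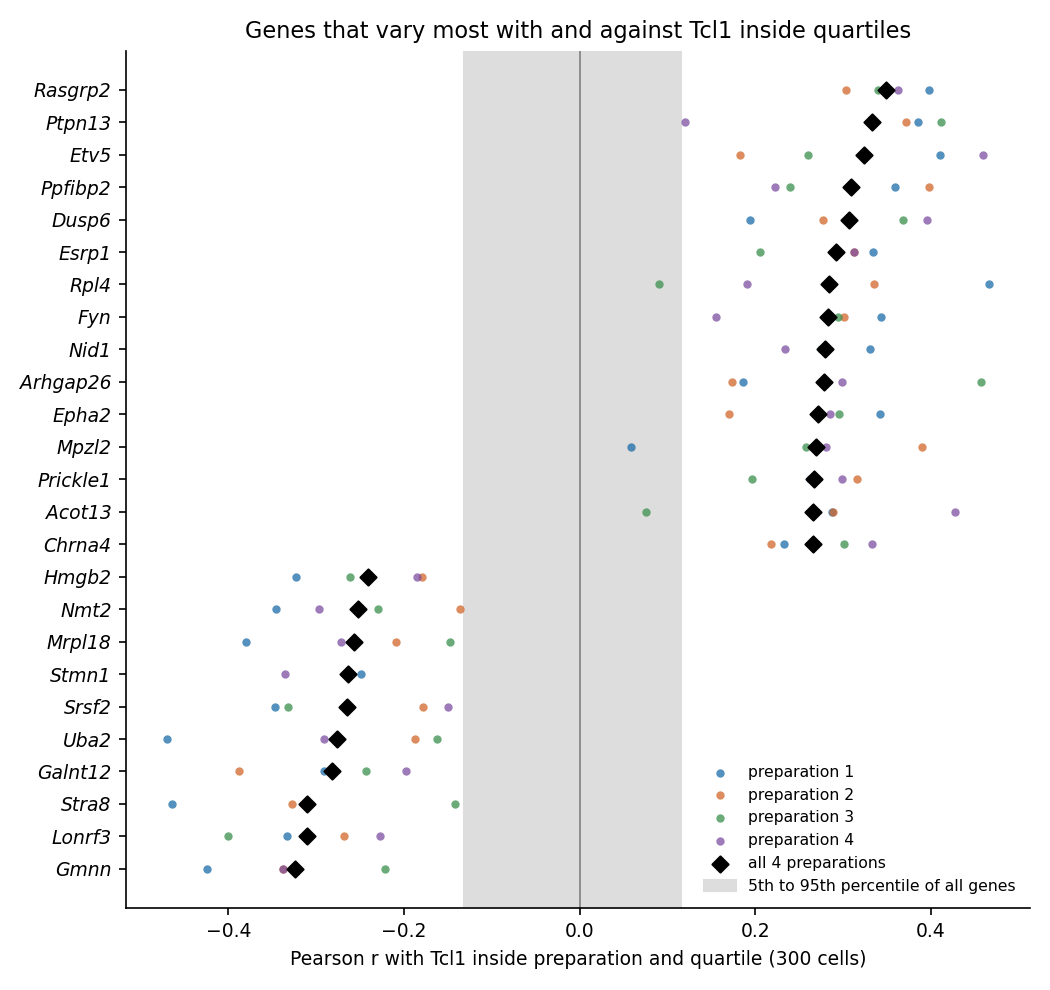
Pearson's r with Tcl1 inside preparation and quartile for the 15 genes of highest and the 10 of lowest r, as black diamonds, with coloured dots for each preparation and a grey band for the 5th to 95th percentile of all genes. Rasgrp2 heads the list at 0.35 and Gmnn closes it at -0.32, and all dots of a gene lie on one side of 0, as the choice required.

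Genes that varied with Tcl1 inside quartiles were often higher in bright cells too. Between Q1 and Q4, 283 of 10411 genes were higher (2.72%) and 55 lower (0.528%) at an adjusted p under 0.05 in limma. Of these 338 genes 83.7% were higher, and 57.8% of 251 after each mean was centred on its median gene. Of the 79 genes with r of 0.2 or more, 43 (54.4%) were higher and 0 lower. Among the 51 genes with r of -0.2 or less, 6 (11.8%) were lower and 0 higher. Tcl1 was itself chosen for this contrast, so these shares are not independent of that choice. Of the 15 named genes 13 were higher, and Rpl4 (difference 0.18, adjusted p = 0.390) and Acot13 (0.67, adjusted p = 0.277) did not pass. Of the 10 lowest, Lonrf3, Stra8 and Nmt2 were lower, at -1.71, -1.60 and -0.98. Stra8 and Nmt2 each lost the call in 6 of 11 alternative settings, among them without preparation 1, 3 or 4. Without preparation 3 the calls of Lonrf3, Esrp1, Fyn, Prickle1 and Chrna4 were lost, and without preparation 4 those of Fyn, Prickle1 and Chrna4. Gmnn had almost equal means, 6.78 in Q1 and 6.86 in Q4 (adjusted p = 0.939), although it had the lowest r inside quartiles.

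Among the receptors and targets of GDNF and FGF, 10 of 18 tested genes were higher in Q1 and 0 lower, against 2.72% and 0.528% of all genes. This list and the others were written with earlier results of these data known. Its median difference was 1.504, against 0.10 over all genes. The receptor genes Gfra1 and Ret were higher by 3.44 (SE 0.40) and 2.02 (SE 0.36) on the log2(FPKM + 1) scale. Their r with Tcl1 inside quartiles was 0.18 and 0.14. The targets Etv5, Dusp6, Spry4 and Spry2 had larger r (0.25 to 0.32), and Lhx1, Egr2, T and Ccnd2 had 0.18 to 0.22. The call of T was lost without preparation 3. The median r of the list was 0.17, against -0.01 over all genes, and 0.08 to 0.28 over preparations. Etv4, Bcl6b and Spry1, targets of the same receptors, did not pass (differences 0.59 to 0.90, adjusted p = 0.0951 to 0.216). Mycn, the member of lowest r (-0.03), leaned the other way and did not pass either (-0.93, limma adjusted p = 0.155).

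The AKT pathway itself showed little. Of 59 tested genes in 5 lists (AKT kinases and activators, inhibitors, substrates, FOXO targets and mTORC1), 0 were higher and 2 lower. The lower genes made up 3.39%, against 0.528% of all genes called lower. Of all genes 2.72% were called higher and 3.25% in either direction. The mean log2(FPKM + 1) of Akt1 was 0.98 ± 0.65 for Q1 cells, against 2.13 ± 0.64 for Q4 cells (SD, n = 4). The difference was -1.15 (SE 0.32, limma adjusted p = 0.0453). Its call was lost in 8 of 11 alternative settings, each preparation left out included. Akt2 went the other way, 2.79 ± 0.45 for Q1, against 1.83 ± 0.48 for Q4, but did not pass (adjusted p = 0.144). Eif4ebp1, a translation repressor that mTORC1 inactivates, had 5.82 ± 0.40 for Q1 cells, against 7.16 ± 0.68 for Q4 cells. It was lower by limma's test (-1.34, SE 0.34, adjusted p = 0.0269), a call lost in 6 of 11 settings, among them without preparations 2, 3 and 4. The AKT-regulated factor Foxo1 differed by -0.59 and did not pass (adjusted p = 0.391).

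Inside quartiles the 59 genes had a median r of 0.00 with Tcl1, and 49 of them lay within 0.1 of 0. The highest were Gsk3b, a kinase that AKT inhibits (0.23), and Pik3ca, the catalytic subunit of PI3K (0.19). The lowest were Carhsp1, an RNA-binding protein listed here among the inhibitors although it is known as a substrate of AKT (-0.21), and Eif4ebp1 (-0.19). These are levels of RNA, and AKT is regulated by phosphorylation, which was not measured.

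Genes of differentiation and of the cell cycle lay on the other side. Among differentiating genes the median r was -0.15, and 8 of 9 tested members were negative, with Stra8 lowest and the cyclin gene Ccnd2 (0.18) the exception. Between Q1 and Q4, 3 of the 9 were lower, Sohlh1 (-1.98), Crabp1 (-1.72) and Stra8 (-1.60), and Ccnd2 was higher (1.72), against 0.528% of all genes lower and 2.72% higher. Besides Stra8, Crabp1 and Ccnd2 each lost the call in 2 of 11 settings and Sohlh1 in 1. All 17 S phase genes had a negative r, with a median of -0.12 (-0.17 to -0.04 over preparations), from Ung at -0.21 to Uhrf1 at -0.02. Of the 18 genes of G2 and mitosis 16 were negative, with a median of -0.12 and Top2a lowest at -0.20. In neither list did a member pass between Q1 and Q4 (0 of 17 and 0 of 18), which is near the 3.25% of all genes called. Mcm4 came nearest, at 1.03 (adjusted p = 0.0944). The number of genes per cell had r = -0.10 with Tcl1. With that number removed by regression, and in 9 other settings, the medians of both lists kept their sign (-0.14 to -0.09 for S phase and -0.14 to -0.08 for G2 and mitosis).

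**Figure D4:**
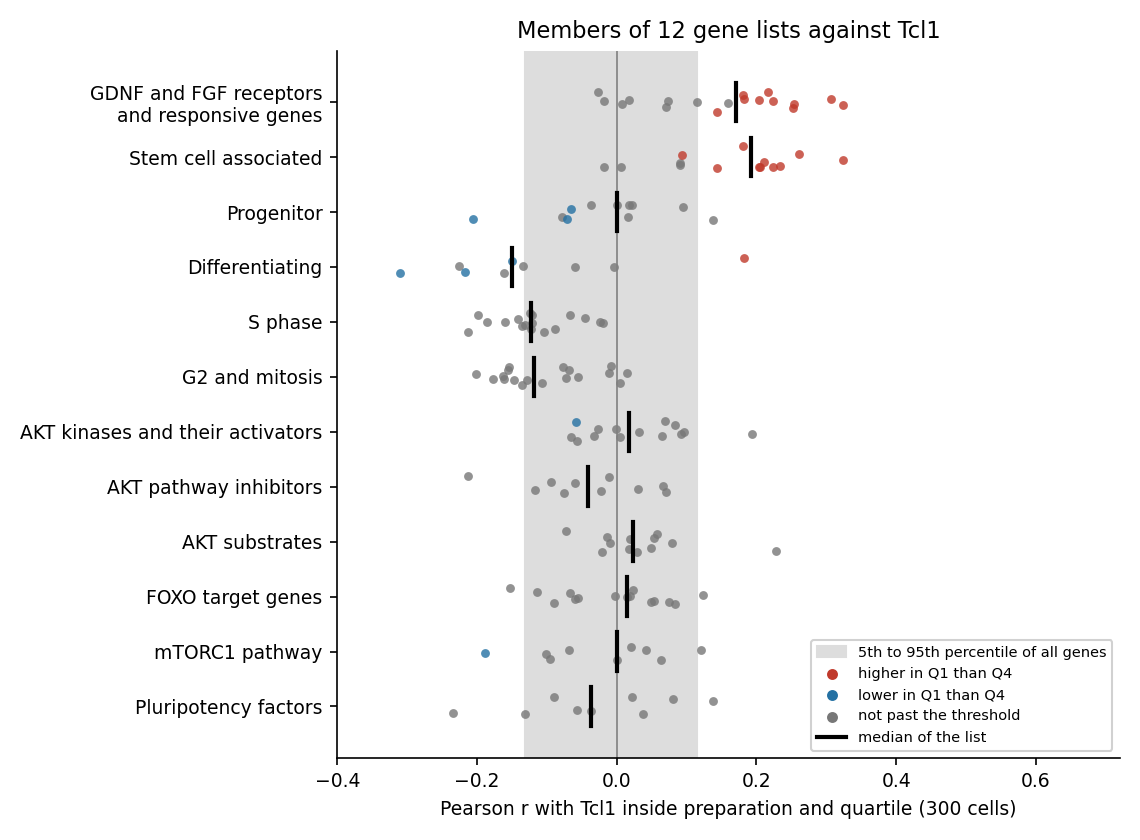
Pearson's r with Tcl1 inside preparation and quartile for each tested member of 12 gene lists, coloured by its call between Q1 and Q4, with a black bar at the median and a grey band for the 5th to 95th percentile of all genes. Members of the GDNF and FGF list and of the stem cell list lie to the right, cell cycle genes to the left, and the 5 AKT lists centre on 0.

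The stem cell associated list had 10 of 14 tested members higher in Q1 and 0 lower, against 2.72% and 0.528% of all genes, and a median r of 0.19. Of the 10, Gfra1, Ret, Etv5, T and Lhx1 are also counted in the GDNF and FGF list. Cd9, whose product was used in the sort, was among the 10 and lost its call in 5 of 11 settings, one of them without preparation 4. Foxc2 (0.26), Tspan8 (0.23), Mcam (0.21), Eomes (0.20) and T (0.20) varied with Tcl1 beside Etv5, while Bcl6b did not (-0.02). The call of Tspan8 was lost without preparation 3. Of the 11 tested progenitor genes 3 were lower, against 0.528% of all genes, namely Upp1 (-2.84), Rarg (-1.06) and Uchl1 (-0.77), and the median r was 0.00. The call of Rarg was lost without preparation 2, 3 or 4, and that of Uchl1 without preparation 4. Pluripotency factors, with which Tcl1 is tied in embryonic stem cells, had 0 of 9 tested members past the threshold, near the 3.25% of all genes, and a median r of -0.04. Klf4 had r = -0.23, and Pou5f1, whose product drives Tcl1 in those cells, 0.02. Nanog was listed at 0 in all cells.

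Detection of Tcl1 with other genes in the same cell differed by quartile. In Q1, Gfra1 reached 1 FPKM in 64 of 74 cells with Tcl1 at that level (86.5%) and in 1 of 5 cells without it. In Q2 the order was the other way, with 66.2% of cells with Tcl1 and 10 of 13 without. In Q4 it did so in 10 of 33 cells with Tcl1 (30.3%) and in 11 of 39 without (28.2%). For Dusp6 the shares in Q4 were 48.5% of cells with Tcl1 and 30.8% of those without, and in Q3 70% and 47.6%. Etv5 and Ret each had 36.4% and 30.8% in Q4. In Q3 Etv5 had 72% and 47.6%, and Ret 62% and 42.9%. The order turned for Etv5 in Q2 (90.8% and 92.3%) and for Ret in Q1 (78.4%, and 5 of 5 cells without Tcl1). Eomes was found in 5 of 33 Q4 cells with Tcl1 and in 0 of 39 without. Kit, the receptor that marks differentiating cells, went the other way in Q4, with 33.3% of cells with Tcl1 and 59% of those without. Its shares were 30% and 38.1% in Q3, and close in Q2, at 24.6% and 23.1%. Sohlh1 (87.9% and 92.3%), Stra8 (66.7% and 71.8%) and Upp1 (75.8% and 82.1%) were common on both sides in Q4. These are counts of cells pooled over preparations and were not tested. They hold for Tcl1 at 1 FPKM, a limit that runs through the cells with a single fragment. Of the 33 Q4 cells at that limit 21 reached 10 FPKM, and at 10 FPKM the shares in Q4 would differ.

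Across the 16 means of preparation and quartile, less the mean of the preparation, the genes most like Tcl1 were Dusp6 (r = 0.99), Etv5 (0.95), the deubiquitinase gene Usp44 (0.95), the GTPase regulator gene Abr (0.95), Spry4 (0.94) and the scaffold gene Slc9a3r1 (0.94). Spry2, Rasgrp2, the peroxisomal protease gene Lonp2 and Arhgap26 followed at 0.92 to 0.94. The genes most opposed were the retinoic acid receptor gene Rarg and Ly6g6c (both -0.93), the glutaminase gene Gls2 (-0.92), the mitophagy receptor gene Bnip3 (-0.91) and Prok2 (-0.91). All 15 were chosen by their r over these same means, and Tcl1 for its difference over brightness. Their course over the quartiles follows from this choice and is no separate finding. Likeness over quartiles came with a low r among single cells for some of them. Usp44, at 1 FPKM or more in 97 cells, had r = 0.10 inside quartiles, Abr (138 cells) 0.11 and Gls2 (31 cells) 0.04. The value of Abr lies near the 95th percentile of all genes (0.11). The part of sparse detection in these values was not tested. On the log2(FPKM + 1) scale Dusp6 averaged 5.77 for Q1, 4.73 for Q2, 3.18 for Q3 and 1.48 for Q4, below Tcl1 in each. Of these 15 genes 6 overlap an exon on the other strand, among them Gls2 with Spryd4 and Ly6g6c with Mpig6b.

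**Figure D5:**
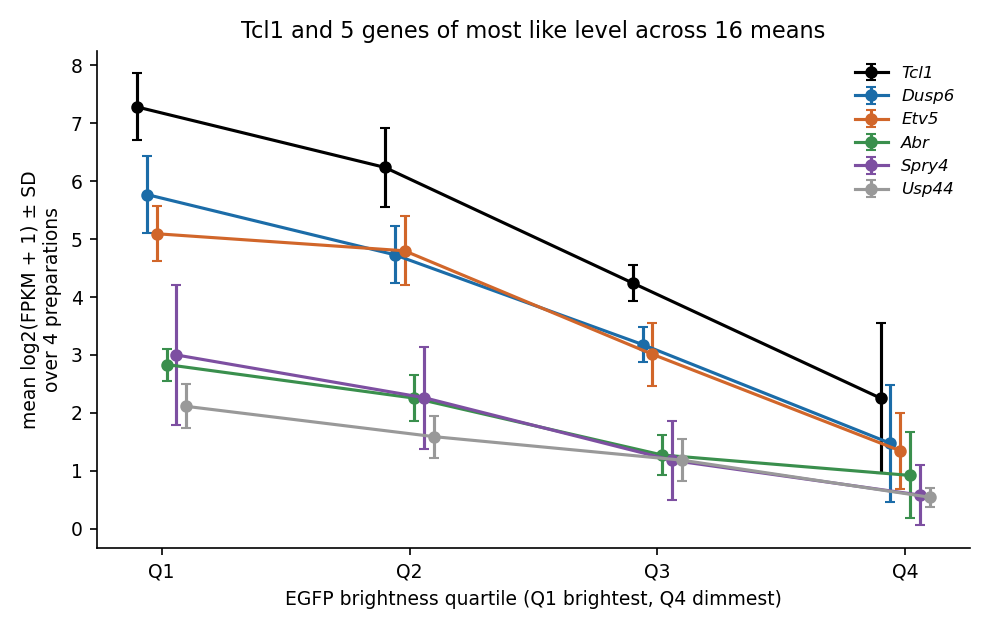
Mean log2(FPKM + 1) ± SD over 4 preparations by EGFP quartile for Tcl1 and the 5 genes of most like pattern across the 16 means. All 6 are highest in Q1 and lowest in Q4, with Tcl1 at 7.28 in Q1 and 2.26 in Q4 and Dusp6 at 5.77 and 1.48. The 5 genes were chosen for this likeness.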

How the data were processed

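Single cells were sequenced from 4 preparations, read from the number in the sample titles. Where each preparation's mice came from is not stated, so SDs measure the spread between these preparations. The authors deposited a table taken here as FPKM, since the submitters' processing notes list Cufflinks, with TopHat, FastQC and Picard, for mm10 and GRCm38 and without versions. All columns had a sample (0 without). Per the labels, dead cells, debris and multiplets had been removed by imaging. Id4 is not analysed here.

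Quartiles were compared on 16 means of log2(FPKM + 1), with a pseudocount of 1, by limma 3.58.1 in R 4.3.3 (trend, robust, preparation as block) for the 10411 genes that reached 1 FPKM in 30 or more cells, with Benjamini-Hochberg adjustment. A difference on this scale understates the change of low genes. Same-numbered means come from one preparation, and their deviations correlated at 0.01 to 0.36 (median 0.13; different preparations -0.04). Tcl1 carries no test. Relative depth came from the step between low FPKM values of a gene, which changes with the cell; the scripts were tested on simulated data. Depth in reads is unknown.

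Genes were named by rule. Inside quartiles the rule takes the 15 highest and 10 lowest r with one sign in every preparation. Across the 16 means it takes the 10 highest and 5 lowest. From each list it takes up to 4 members by smallest p and those of highest and lowest r, and 9 partners were set for co-detection. Predicted genes were skipped. The members and lists were chosen with earlier results of these data known. Genes of the lists outside this rule were named after their values were seen, namely Foxo1, Etv4, Spry1, Lhx1, Egr2, T, Tspan8, Mcam, Cd9, Pou5f1, Nanog and the markers Ptprc, Cd3e, Cd3g, Cd79b, Blk, Rag1, Rag2, Gdf9, Nlrp5, Bmp15, Oosp1 and Oog3, as was Rbbp7. Alternatives changed the pseudocount, filter, block, centring, covariate, averaging, threshold and kind of correlation, and left out each preparation. The 2-fragment threshold and the removal of depth were added after the data were seen.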

Additional observations from a re-analysis of the deposited data

Results flagged for a closer look

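Over 20 groups of 4 preparations of Tcl1 values, 2 held a preparation that stood apart by its gap to the nearest other, and chance gives about 1 in 20. The groups include several measures of the same cells and are not independent, so the count of 2 cannot be judged against that rate. In Q4, preparation 2 had a median of 27.3 FPKM, against medians of 0.00 to 0.84 in the other preparations. In Q3, preparation 3 had 58.8% of cells at 1 FPKM or more, against 73.3% to 75% in the others, but 52.9% at 10 FPKM or more, against 53.3% to 65%. Preparation 2 averaged 5813 genes per cell and preparation 3 5572, within the range of the 4 preparations (4368 to 6216). Preparation 2 had the lowest mean relative depth, 0.851, against 1.02 to 1.18 in the others. The part of depth in these values was not tested.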

How the results depend on the processing

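The count of 338 genes called between Q1 and Q4 depended on the fit. It was 99 without the replicate block, all 99 of them shared with the 338, 177 with no filter, 135 with detected genes as a covariate and 80 from the log2 of the mean FPKM, and 137 to 270 without one preparation each. Centring on the median gene moved the median difference over all genes to -0.08, against 0.10. Tcl1 was higher in Q1 than in Q4 under each of 11 alternatives, by 6.55 with a pseudocount of 0.1, by 3.09 from the log2 of the mean FPKM and by 4.74 to 5.42 without one preparation each, against 5.02. Leaving out the block, dropping the filter and the stricter filter cannot change this difference, which stayed at 5.02. Tcl1 was also chosen for it. Its share of cells differed by 48 percentage points at 1 FPKM, by 61 at 5 FPKM, 62.4 at 10 FPKM, 58.2 at 2 fragments and 41 above 0, and by 44 to 52.4 without one preparation each. All 25 genes named by r kept their sign under 10 alternatives, in part by their choice. Of 45 called genes named in the text or lists, 17 kept their call in every alternative run, among them Etv5, Dusp6, Gfra1, Ptpn13, Nid1, Arhgap26, Eomes, Foxc2 and Upp1. Single cells with 1 fragment set the limit of detection. Except where fewer genes or samples entered a fit, the cause of a change was not tested.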
